A study of Mus musculus with 4 samples.

Results

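The genes for the proteins that bind or remove N6-methyladenosine (m6A) were examined for m6A on their own transcripts in mouse c-Kit+ cells. The 10 genes were the YTH domain readers Ythdf1, Ythdf2, Ythdf3, Ythdc1 and Ythdc2, the IGF2BP readers Igf2bp1, Igf2bp2 and Igf2bp3, and the demethylases Fto and Alkbh5, out of 21851 protein-coding genes. A peak was given to a gene when its summit lay in an exon of that gene in the GENCODE M21 basic transcript set, which held for 12 of 15635 peaks in replicate 1 and 15 of 14872 in replicate 2.

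In m6A meRIP-seq, RNA is fragmented, fragments with m6A are captured with an antibody, and captured (IP) and unselected (input) fragments are sequenced. The series holds 4 samples, 2 m6A IP and 2 input replicates, and the 1 group used here is the m6A IP with its 2 biological replicates. Per the labels the cells were Kit+ cells enriched with magnetic beads from C57BL/6 foetal liver and the IP samples are listed as total RNA while the input samples are listed as polyA RNA. No treatment or age is given. Per the study's methods they were Ythdf2 CTL cells. These carry the Ythdf2 fl/fl alleles without Cre, in which loxP sites flank exon 2 of Ythdf2 and GFP follows its start codon, so that every cell made a GFP-YTHDF2 fusion. The inserted sequence is not in the reference genome and was not measured here. No group without this allele was compared.

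m6A is placed on adenosines of nascent transcripts by the METTL3-METTL14 writer complex, mostly in sequences of the DRACH pattern, where the methylated A follows a purine and precedes a C, and lies mainly near stop codons and in long internal exons. The cytoplasmic YTHDF proteins bind it through a YTH domain and act on the decay and translation of the transcript, nuclear YTHDC1 acts on splicing and export, and YTHDC2 is an RNA helicase known for its role in meiosis. The IGF2BP proteins are mRNA-binding proteins that stabilise transcripts and are known from foetal tissues, and FTO and ALKBH5 are dioxygenases that remove the methyl group.

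Of the 10 genes, 6 carried an exonic summit in both replicates, namely Ythdf1, Ythdf2, Ythdf3, Igf2bp1, Fto and Alkbh5, where 30.9% of all protein-coding genes did. At a fold enrichment of at least 4, Ythdf2 and Ythdf3 were left, 2 of 10 genes against 16.9% of protein-coding genes. Ythdc1 and Ythdc2 had an exonic summit in replicate 2 only, which brought the count in either replicate to 8 of 10 against 37.1% of protein-coding genes. Replicate 1 alone gave 6 of 10 genes (34.4% of protein-coding genes) and replicate 2 gave 8 of 10 (33.5%). Igf2bp2 and Igf2bp3 had no exonic summit in either replicate. The 21851 protein-coding genes were not filtered by expression, so their shares also count genes that these cells may not express. A gene without a peak can lack m6A or lack the reads to show it. In cells pooled before sequencing, fewer methylated cells and fewer methylated molecules per cell cannot be told apart. Cells enriched on magnetic beads can include other cell types of the liver. Exonic summits in both replicates were found for 7 of 11 progenitor marker genes (Cd34, Gata2, Tal1, Runx1, Lmo2, Spi1 and Hmga2, with none in Kit itself, Myb, Gata1 or Lin28b). They were found for 2 of 5 hepatocyte markers (Apoa1 and Hnf4a, with none in Alb or Ttr and Afp in replicate 1 only), for 2 of 3 erythroid markers, and for 1 of 3 each of macrophage and endothelial markers. These counts stand beside 30.9% of all protein-coding genes, to which the hepatocyte, macrophage and endothelial shares are close. A peak list gives no expression level, so the labelled cell type could not be checked further from it, and the part of other cells in the member peaks was not tested.

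The values used are those MACS2 gave for each peak. The fold enrichment is the IP signal over the local background at the summit, and −log10 q is the strength of the call, which grows with the number of reads. The member peaks had a median fold enrichment of 3.39 in replicate 1 and 4.01 in replicate 2, where the medians were 4.47 and 4.76 over all peaks and 4.11 and 4.29 over peaks with a summit in a protein-coding gene. Their median −log10 q was 13.9 and 15.6, against 14.98 and 14.85 over all peaks and 16.5 and 16.1 over those of protein-coding genes. Only 8 of the 27 member peaks exceeded the median fold enrichment of their list, while 14 of 27 exceeded its median −log10 q. The median member peak rested on 101 IP reads in replicate 1 and 81 in replicate 2 at its summit, against 57 over all peaks of each list. The background under the member peaks was also higher, with a median of 31.1 and 26 control reads against 13 and 10 over all peaks. The peaks of protein-coding genes had a median of 71 and 68 IP reads over 18 and 14 control reads. In the plot of IP reads against control reads, the long-exon peaks of the YTHDF genes sit at the upper right, and those of Ythdc2 and the 5′ end of Ythdf3 at the lower left.

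**Figure D1:**
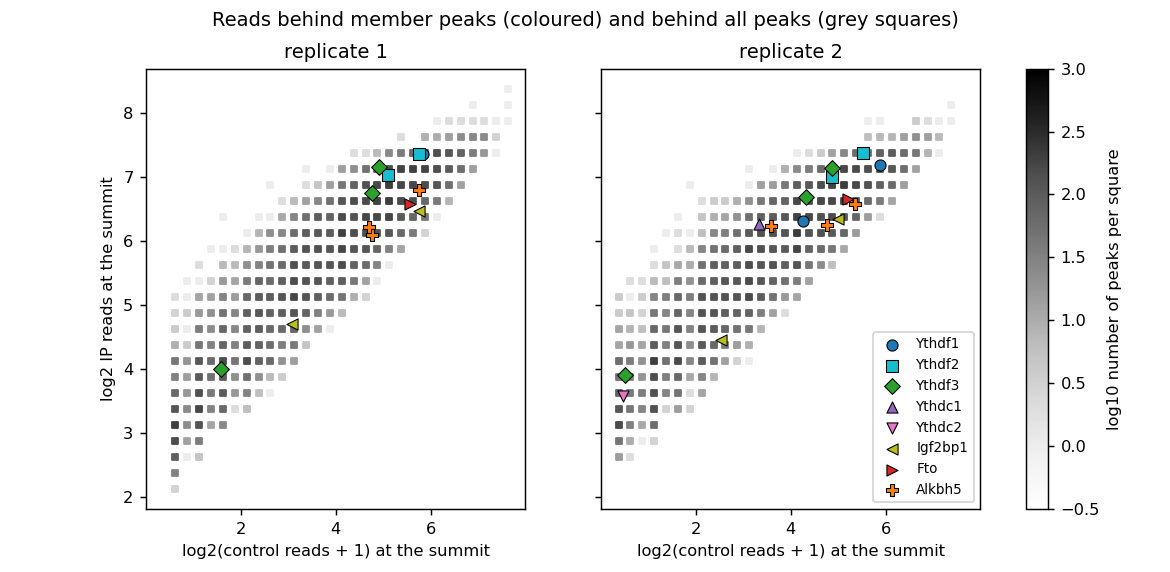
Reads at the summit of each exonic member peak (coloured symbols, 1 per peak) and number of all peaks per square (grey), for replicates 1 and 2. The x axis is log2(control reads + 1), the y axis is log2 IP reads; member peaks range from 12 to 165 IP reads and most lie in the upper part of the cloud.

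The peaks were largely the same in both replicates. All 12 exonic member peaks of replicate 1 overlapped a peak of replicate 2, and 12 of 15 in replicate 2 overlapped one of replicate 1, where 80.6% and 83.9% of all peaks did. The 3 without a partner were the stop codon peak of Ythdf1, the 5′ peak of Ythdc1 and the peak of Ythdc2. Among the 12 shared peaks, fold enrichment differed by a median of 0.20 on the log2 scale and was higher in replicate 2 for 6. The SD of this log2 difference over 11524 one-to-one pairs of peaks was 0.47, and 95.2% of pairs lay within 2-fold of each other. The shared member peaks were within 2-fold in 11 of 12 cases, and their summits lay a median of 24.5 nt and at most 85 nt apart. The exception was the start codon peak of Alkbh5. With 2 replicates and 1 group, no test between conditions was possible, and differences were read against this spread.

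**Figure D2:**
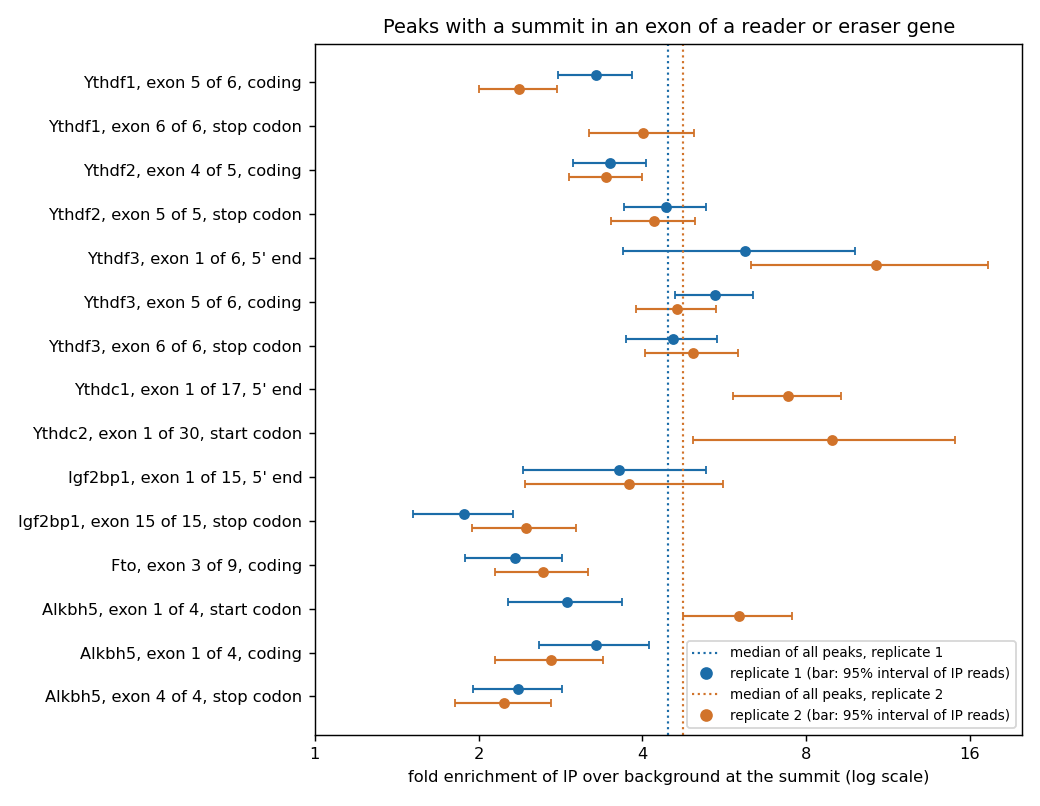
Fold enrichment of IP over background (x axis, log scale) at every summit in an exon of a reader or eraser gene, by replicate (colours). Bars are exact 95% Poisson intervals of the IP reads alone and dotted lines are the medians of all peaks (4.47 and 4.76); most member peaks lie left of the dotted lines, and the replicates' bars overlap for the shared peaks except those of Ythdf1 exon 5 and of the Alkbh5 start codon.

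Where the summits lay was described beside all summits placed on transcripts. Of the 27 member summits, 9 (33.3%, exact Clopper-Pearson 95% interval 16.5% to 54.0%) were within 200 nt of the stop codon, where 30.7% and 29.8% of all placed summits were. A further 10 were in coding sequence, 4 near the start codon and 4 in the 5′ UTR, and 0 lay in the 3′ UTR beyond the stop codon window. Internal exons 400 nt or longer contained 8 of 27 (29.6%), beside 20.7% and 20.6% of all placed summits. The letters GGAC, the core of the preferred m6A sequence, were found within 50 nt of 15 of 27 summits (55.6%), beside 56.1% and 56.0% over all placed summits. A DRACH sequence was found within 50 nt of 22 of 27 (81.5%), beside 93.3% in each list. The intervals cover counting error only, and the same site seen in both replicates counts as 2 summits, so the 27 are not independent.

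Several members carried more than 1 peak. In replicate 1, 4 of the 6 genes with an exonic summit had at least 2, and 2 of 6 had at least 3, where 40.3% and 13.4% of all protein-coding genes with a summit did. In replicate 2 these were 5 of 8 and 2 of 8, beside 39.8% and 13.1%. Ythdf3 and Alkbh5 had 3 exonic peaks in each replicate. The member transcripts were longer than the typical one, with a median of 4237 nt against 2544 nt over all protein-coding genes. Their density of GGACH (H is A, C or T), with a median of 3.22 per kb against 3.52, was not higher.

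By −log10 q, Ythdf3 had the strongest call of the group in both replicates, and the next strongest were those of Ythdf2 and Ythdf1 in replicate 1 and of Ythdc1 and Ythdf2 in replicate 2. Each of Ythdf1, Ythdf2 and Ythdf3 carried a peak over most of its long internal coding exon, which encodes the greater part of the protein, and a peak with its summit in the last exon at the stop codon, which for Ythdf1 was called in replicate 2 alone. These last-exon peaks also ran into the intron before that exon. The peaks in the long exon were at least 1416 bp wide, in both replicates, whereas 2.48% and 3.04% of all peaks reached 1400 bp. Among peaks with a summit in any internal exon of 400 nt or longer, 2.14% in replicate 1 and 2.60% in replicate 2 did, with median widths of 482 and 496 bp. Many such exons are shorter than the 1521 to 1599 nt of the YTHDF exons. No comparison with exons of like length was made, so these shares do not show the YTHDF peaks to be unusual for their exons.

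**Figure D3:**
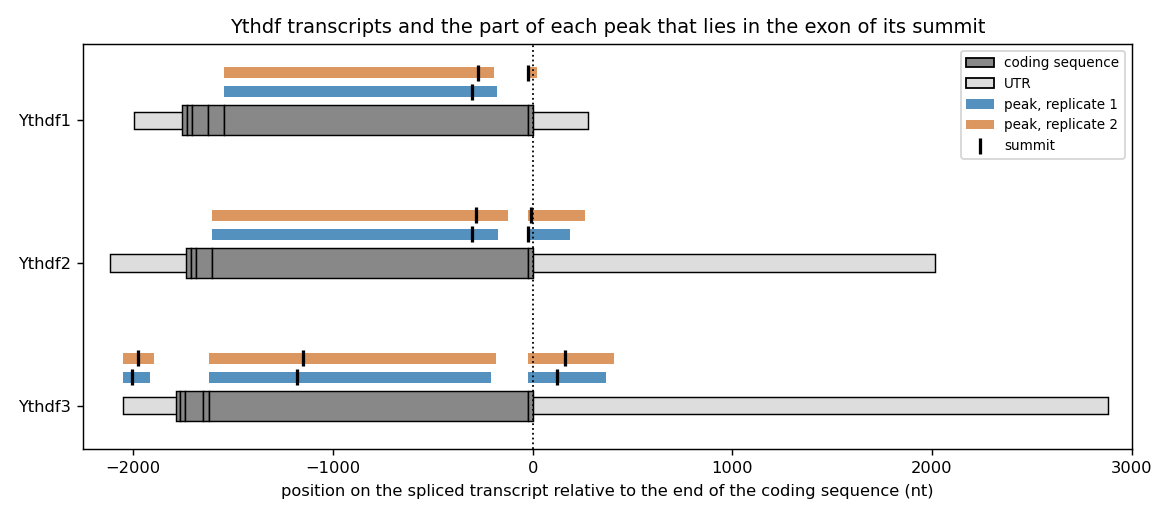
Spliced transcripts of Ythdf1, Ythdf2 and Ythdf3, with x the distance in nt from the end of the coding sequence, exons as boxes (coding sequence dark and UTR light), and peaks of replicates 1 and 2 as coloured bars clipped to the exon of their summit. Black ticks are summits; each gene has a wide peak over its long internal exon, with the summit 274 to 306 nt before the stop in Ythdf1 and Ythdf2 and 1150 to 1180 nt before it in Ythdf3.

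In Ythdf1 (ENSMUSG00000038848.14, minus strand, GRCm38 as for all coordinates here), exon 5 of 6 held the peak found in both replicates. It spanned chr2:180910841-180912268 in replicate 1, with a fold enrichment of 3.29 and −log10 q of 33.6 (163 IP reads over 56 control reads). It spanned chr2:180910858-180912273 in replicate 2, with a fold enrichment of 2.37 and −log10 q of 15.6 (146 over 58). The peaks covered 89.9% and 88.8% of the 1521 nt of the exon. A second Ythdf1 peak, chr2:180905623-180905834, had its summit 21 nt before the stop codon and was called only in replicate 2, with a fold enrichment of 4.01 and −log10 q of 20.2 (79 IP reads over 18 control reads). It covered 15.4% of the 299 nt of exon 6, and most of its 212 bp lay in the intron before that exon. The q of this replicate 2 peak was above the median of all peaks, and no replicate 1 peak overlapped it. The exon 5 peak differed 1.39-fold between replicates, and 26.6% of all pairs of peaks differed by more.

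In Ythdf2 (ENSMUSG00000040025.17, minus strand), the reader that recruits deadenylation machinery to methylated transcripts, 2 peaks were found in each replicate and at nearly the same height. The stop codon peak in exon 5 of 5 spanned chr4:132186741-132187101 in replicate 1, with a fold enrichment of 4.43 and −log10 q of 39.5 (131 IP reads over 33 control reads). In replicate 2 it spanned chr4:132186667-132187110, with 4.20 and 33.8 (127 over 28). Its summits were 21 and 9 nt before the stop codon. The peak of exon 4 of 5 spanned chr4:132204282-132205795, with a fold enrichment of 3.49 and −log10 q of 36.8 in replicate 1 (164 IP reads over 53 control reads), and chr4:132204234-132205780, with 3.44 and 34.4, in replicate 2 (165 over 45). These peaks covered 90.5% and 93.6% of the 1584 nt of the exon, and their IP reads exceeded those of 97.2% and 98.2% of all peaks. The replicates differed 1.05-fold at the stop codon and 1.02-fold in exon 4, and 84.6% and 95.4% of all pairs of peaks differed by more.

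The Ythdf2 values are uncertain because the sequence under its peaks occurs elsewhere in the genome. Processed pseudogenes Gm6823 (chrX:70420716-70422554, minus strand) and Gm8401 (chrX:70517777-70519515, plus strand) matched the exon 4 peak at 96.0% to 96.2% identity over 1435 to 1483 nt, and the stop codon peak at 92.1% to 94.8% over 212 to 287 nt. The 2 copies were 99.6% identical to each other. Each had 1 peak in each replicate. Gm8401 had peaks at chr X positions 70519212 to 70519420, with a fold enrichment of 9.11 (32 IP reads over 3 control reads), and 70519214 to 70519418, with 6.91 (28 over 3), in replicates 1 and 2. Gm6823 had 70421753 to 70421955, with 3.05 (26 over 9), in replicate 1 and 70420804 to 70421017, with 7.86 (32 over 3), in replicate 2. The summits of 3 of these 4 peaks align to a stretch of Ythdf2 187 to 193 nt before its stop codon, and that of Gm6823 in replicate 1 to a position 1102 nt before it. Under these 4 peaks the identity to Ythdf2 was 96.7% to 97.5% and the longest identical runs were 85 to 95 nt. Whether reads were shared between Ythdf2 and the copies was not tested, since reads were not analysed here. No exonic peak of another member had a copy of at least 100 nt at 90% identity.

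In Ythdf3 (ENSMUSG00000047213.14, plus strand), 3 peaks were found in both replicates. The peak of exon 5 of 6 was the strongest call of all 10 genes. It spanned chr3:16203773-16205236 in replicate 1, with a fold enrichment of 5.43 and −log10 q of 53.2 (143 IP reads over 29.2 control reads), and chr3:16203761-16205261 in replicate 2, with 4.63 and 42.3 (141 over 28.2). It covered 88.2% and 89.8% of the 1599 nt of the exon. By −log10 q of its strongest peak, Ythdf3 stood above 96.1% of the protein-coding genes with a summit in replicate 1 and 90.5% in replicate 2, which for Ythdf2 were 84.9% and 80.8% and for Ythdf1 76.4% and 49.6%. The last exon held chr3:16213783-16214344, with 4.55 and 33.5 in replicate 1 (107 over 26), and chr3:16213788-16214385, with 4.95 and 33.5 in replicate 2 (103 over 19). Its summits were 124 and 164 nt past the stop codon, in the 3′ UTR, where those of Ythdf1 and Ythdf2 were in the last codons. The Ythdf3 peak at the 5′ end, chr3:16183117-16183368 and chr3:16183125-16183387, had the highest fold enrichment of the shared exonic member peaks, 6.19 and 10.8, on few reads (16 over 2 and 15 over 0.42). Its replicates differed 1.74-fold, and 9.55% of all pairs of peaks differed by more. No DRACH lay within 50 nt of either summit of this 5′ peak, and whether its signal is m6A was not tested.

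The coding sequences of the YTHDF genes are alike enough to set the summits side by side. They are 69.9% (Ythdf1 and Ythdf2), 70.6% (Ythdf1 and Ythdf3) and 71.8% (Ythdf2 and Ythdf3) identical where aligned, with no identical run longer than 22 nt. The replicate 1 summit in exon 5 of Ythdf1 aligned to within 1 nt of that in exon 4 of Ythdf2, and the replicate 2 summits were 10 nt apart on the alignment. The stop codon summit of Ythdf1 in replicate 2 aligned 9 nt from that of Ythdf2 in the same replicate. Both of these summits lie just after the start of the last exon, at −24 in Ythdf1 and −21 in Ythdf2 relative to the stop codon. Whether this exon boundary set their positions was not tested. The summits of Ythdf3 in its long exon lay elsewhere, 778 nt or more from those of Ythdf1 and Ythdf2 on the alignment, although all those peaks cover both places. The stretches below are the aligned reference sequences around the GGACH nearest to the Ythdf2 exon 4 summits, shown because the summits of Ythdf1 and Ythdf2 coincide there and that of Ythdf3 does not. They are DNA, 5′ to 3′ on the transcript strand, with the GGACH of Ythdf2 and the letters aligned to it in capitals. The pair of genes with a coinciding summit share GGACT, and Ythdf3 differs by G11A, counted from 1 at the 5′ end of the stretch. Its AGACT is no GGACH but still fits the DRACH pattern. These sites were chosen after the values had been seen.
Ythdf1 (chr2:180910958-180910982, minus strand): agtcccctgtGGACTacggcaccag
Ythdf2 (chr4:132204403-132204427, minus strand): aatctgctgtGGACTacaacacatg
Ythdf3 (chr3:16205129-16205153, plus strand): agtctgttgtAGACTataatgctta

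The A of GGACT lay 2 nt from the replicate 1 summit and 34 nt from the replicate 2 summit in Ythdf1, and 1 and 24 nt in Ythdf2. In Ythdf1 another site, a GGACA, was nearer to the replicate 2 summit, at 1 nt, and was 31 nt from that of replicate 1. Of the 25 bases, 18 of Ythdf1 and 17 of Ythdf3 were identical to Ythdf2. The reverse view starts from the GGACT in exon 5 of Ythdf3, which lay 3 and 27 nt from its summits. The aligned stretches have no GGAC in the other genes, which differ by A13C in Ythdf1 and by G12C in Ythdf2, and 19 of 25 bases were identical to Ythdf3 in each. Their own nearest summits were 805 and 837 nt away in Ythdf1 and 861 and 884 nt in Ythdf2.
Ythdf1 (chr2:180911761-180911785, minus strand): gggcatggttGGCCTgaagattggg
Ythdf2 (chr4:132205263-132205287, minus strand): agggatggcaGCACTgaaactaggt
Ythdf3 (chr3:16204257-16204281, plus strand): aggcatgactGGACTgaaaattggt

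A match of letters is a description and not a measured methylation site. The wide peaks held several such letters: 8 GGACH lay under the exon 5 peaks of Ythdf1 in both replicates, 8 under the exon 4 peaks of Ythdf2, and 6 under the exon 5 peaks of Ythdf3. The Ythdf2 stop codon peaks held 3, of which the one nearest the summits was 56 nt past the stop codon. No GGACH lay under the 5′ peak or the last-exon peak of Ythdf3 in both replicates.

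The YTHDC genes stood apart from the YTHDF genes in that neither had an exonic summit in both replicates. For Ythdc1 (ENSMUSG00000035851.14, plus strand), replicate 2 alone had a peak at the 5′ end, chr5:86804179-86804430, with a fold enrichment of 7.43 and −log10 q of 36.6 (77 IP reads over 9 control reads) and its summit 85 nt from the 5′ end of a basic transcript. By −log10 q this exceeded the strongest peak of 84.0% of protein-coding genes with a summit, yet no replicate 1 peak overlapped it. The usual transcripts of Ythdc1 carried no other exonic summit.

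Both replicates did have a wide Ythdc1 peak over exon 11 and the intron after it. It spanned chr5:86827866-86829478 in replicate 1, with a fold enrichment of 7.16 and −log10 q of 36.6 (75 IP reads over 11 control reads), and chr5:86827895-86829578 in replicate 2, with 2.58 and 9.36 (75 over 27). The usual exon 11 has 167 nt. In the comprehensive GENCODE M21 set, transcript ENSMUST00000156363.7, of the nonsense-mediated decay class, has an extended exon 11 of 1525 nt that runs 1358 nt into the intron (chr5:86827955-86829479), and the peaks covered 99.9% and 100% of that extension. The replicate 1 peak ended 1 nt before the end of the extended exon and the replicate 2 peak 99 nt past it, while the intron after the usual exon 11 runs for 2432 nt. Annotated retained-intron transcripts also hold the summits, 1 for replicate 1 and 2 for replicate 2. Which transcript form the fragments came from was not tested. The IP is labelled total RNA and the input polyA RNA. What this does to fold enrichment over introns, here or in other members, was not tested. Counted with the comprehensive set, Ythdc1 had summits in both replicates and 7 of 10 genes did, against 31.6% of protein-coding genes.

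**Figure D4:**
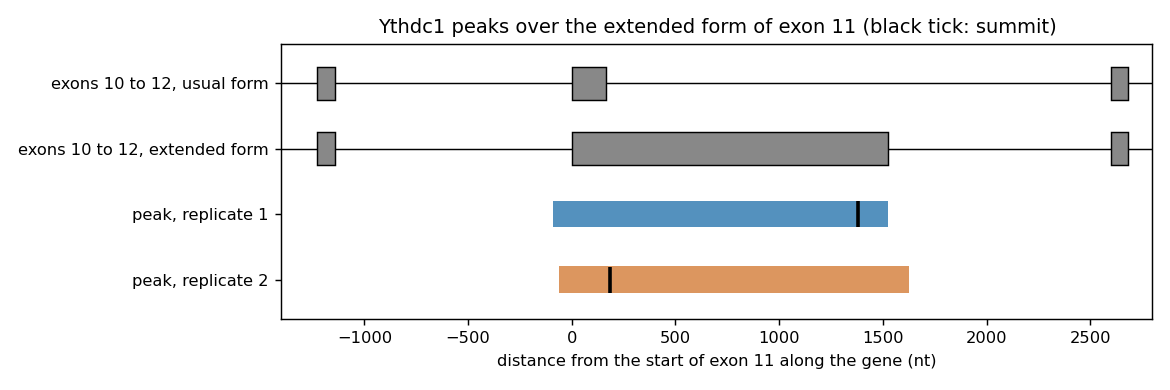
Exons 10 to 12 of Ythdc1 in the usual form and in the transcript with the extended exon 11 (grey boxes), and the peak of each replicate (coloured bars) with its summit (black tick). The x axis is the distance in nt from the start of exon 11; both peaks end close to the end of the extended exon of 1525 nt, and their summits are 1198 nt apart.

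The summits of this Ythdc1 peak lay 1215 nt past the usual exon in replicate 1 and 17 nt past it in replicate 2, a distance of 1198 nt, and 0.130% of all pairs had summits more than 1000 nt apart. Overlapping peaks can have summits that far apart only when they are wide, and the median width of all peaks was 368 and 383 bp. The share therefore does not show such a distance to be rare for peaks as wide as these. The fold enrichments, measured at these different places, differed 2.77-fold, which 0.659% of all pairs exceeded. The extension holds 9 GGACH and the usual exon 0. Each summit was close to a GGACT, shown here in capitals with the reference sequence around it, at 13 nt in replicate 1 and 2 nt in replicate 2.
Ythdc1, replicate 1 summit (chr5:86829311-86829335, plus strand): gttttgcaatGGACTgcaaactata
Ythdc1, replicate 2 summit (chr5:86828128-86828152, plus strand): aacgttctttGGACTgataataggc

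Ythdc2 (ENSMUSG00000034653.11, plus strand) had 1 peak, in replicate 2 only. It spanned chr18:44828453-44828774 in exon 1 of 30, 86 nt before the start codon at its summit, with a fold enrichment of 8.93 and −log10 q of 10.8. This rested on 12 IP reads over a background of 0.391 control reads, and 4.53% of the peaks in the list had fewer IP reads. Its summit had no GGAC and no DRACH within 50 nt, and whether its signal is m6A was not tested.

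Of the IGF2BP genes, only Igf2bp1 (ENSMUSG00000013415.9, minus strand) carried exonic peaks, 2 in each replicate, all below the median of their list in fold enrichment and in −log10 q. The stop codon peak in exon 15 of 15 spanned chr11:95963395-95963637 in replicate 1, with a fold enrichment of 1.88 and −log10 q of 5.11 (88 IP reads over 53 control reads). In replicate 2 it spanned chr11:95963393-95963635, with 2.44 and 9.09 (81 over 31). The other peak lay at the 5′ end of exon 1, chr11:96005822-96006032, with 3.62 and 6.12 in replicate 1 (26 over 7.40), and chr11:96005761-96006011, with 3.78 and 4.72 in replicate 2 (22 over 4.8). These 5′ peaks, though not their summits, overlap an exon of the antisense gene Gm29202, and the lists carry no strand, so the overlapped stretch cannot be assigned to either gene.

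The strongest Igf2bp1 call was above that of 8.32% and 16.1% of the protein-coding genes with a summit, the lowest shares of any member found in both replicates. The stop codon summits lay 13 and 35 nt before the stop codon, and 18 and 4 nt from the GGACA printed here in capitals.
Igf2bp1 (chr11:95963521-95963545, minus strand): gcaccagaagGGACAgagcaacctg

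Igf2bp2 (ENSMUSG00000033581.17, chr16:22059009-22163299, minus strand) had no peak in its exons or introns in either replicate, although its chosen transcript holds 12 GGACH. Igf2bp3 (ENSMUSG00000029814.10, chr6:49085223-49214957, minus strand), whose transcript also holds 12, had only an intronic peak, in replicate 1, with a fold enrichment of 6.45 on 13 IP reads. Igf2bp1 has 33 on a transcript of 8378 nt, of which 2 lay under its peaks in both replicates.

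The erasers each carried peaks in both replicates. Fto (ENSMUSG00000055932.15, plus strand), the first m6A demethylase described, had its peak in exon 3 of 9, a coding exon of 619 nt. It spanned chr8:91409099-91409692 in replicate 1, with a fold enrichment of 2.33 and −log10 q of 10.3 (95 IP reads over 46 control reads), and chr8:91409077-91409684 in replicate 2, with 2.62 and 13.4 (101 over 36). It covered 75.9% and 74.6% of the exon, and the replicates differed 1.13-fold, with summits 85 nt apart. No GGAC lay within 50 nt of either summit. The GGACC nearest to them was 85 and 170 nt away and is shown in capitals as the closest candidate in the peak.
Fto (chr8:91409653-91409677, plus strand): atgatgaagtGGACCttaagagcag

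Alkbh5 (ENSMUSG00000042650.3, plus strand), a nuclear demethylase, had 3 exonic peaks in each replicate, of which 2 lay in exon 1 of 4 and 1 in the last exon. The peak near the start codon spanned chr11:60538034-60538452 in replicate 1, with a fold enrichment of 2.91 and −log10 q of 11.4 (68 IP reads over 26 control reads), and chr11:60538006-60538462 in replicate 2, with 6.03 and 29.7 (75 over 11). This 2.07-fold difference was the only one above 2-fold among the shared exonic member peaks, and 3.87% of all pairs differed by more. The IP reads were alike and the control reads were not. The second peak of exon 1, in coding sequence, spanned chr11:60538598-60538966, with 3.28 and 15.2 in replicate 1 (74 over 25), and chr11:60538589-60539022, with 2.72 and 10.5 in replicate 2 (76 over 26). Neither summit of this second peak had a GGAC or a DRACH within 50 nt, and whether its signal is m6A was not tested. The peak in exon 4 spanned chr11:60554142-60554523, with 2.37 and 12.6 (111 over 53), and chr11:60554138-60554438, with 2.23 and 8.61 (95 over 40), with summits 101 and 113 nt before the stop codon. The second peak of exon 1 and the exon 4 peak each differed by 1.21-fold or less between replicates. The reference sequences show the GGACH nearest to the summits of the 3 peaks in the order given above, with GGACH in capitals, 23 and 49 nt, 76 and 57 nt, and 54 and 42 nt from the summits of replicates 1 and 2.
Alkbh5, start codon (chr11:60538321-60538345, plus strand): ctggcactgaGGACCctcgcttccc
Alkbh5, exon 1 coding (chr11:60538787-60538811, plus strand): agcacacggtGGACCgggcccccct
Alkbh5, exon 4 (chr11:60554246-60554270, plus strand): tcctggaaatGGACAaagaagaaaa

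Taking the peak with the highest −log10 q of each gene in each replicate, fold enrichment was 5.03 ± 0.568 (SD, n = 2) for Ythdf3, 4.66 ± 1.94 for Alkbh5, 3.93 ± 0.700 for Ythdf2, 3.65 ± 0.512 for Ythdf1, 3.03 ± 0.832 for Igf2bp1 and 2.48 ± 0.208 for Fto. Neighbours in this order lay within the larger of their SDs of each other. The peak was not the same one in both replicates for Ythdf1, Ythdf2, Igf2bp1 and Alkbh5. Fold enrichment is a ratio to the local background at a place and not a share of methylated molecules. By mean −log10 q the order was different, with Ythdf3 at 47.7, Ythdf2 at 37.0, Ythdf1 at 26.9, Alkbh5 at 22.4, Fto at 11.8 and Igf2bp1 at 7.61.

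Writer genes, other genes described as m6A readers, and the other members of the AlkB family were counted by the same rule. Of 11 writer genes, 9 (81.8%) had an exonic summit in both replicates, where 30.9% of all protein-coding genes did. The catalytic pair Mettl3 and Mettl14 had none in either. Wtap, which holds the writer complex together, had −log10 q of 45.1 and 30.8 and a fold enrichment of 4.06 and 3.65 at its strongest peak, and was the strongest writer in replicate 1, while Virma, with −log10 q of 34.3, was in replicate 2. Virma and Zc3h13, further subunits of the complex, had 4 peaks each in each replicate. Of 11 other RNA-binding proteins described as m6A readers, 4 (Hnrnpa2b1, Hnrnpc, Prrc2a and G3bp1) had an exonic summit in both replicates. This share, 36.4%, is close to the 30.9% of all protein-coding genes. The FXR family genes Fmr1, Fxr1 and Fxr2 had none. Of the 7 other AlkB family dioxygenases, Alkbh1, Alkbh4 and Alkbh8 had one in both replicates (42.9%, beside the same 30.9%). Alkbh2, Alkbh3, Alkbh6 and Alkbh7 had none in either.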

How the data were processed

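The deposited data were 1 narrowPeak list for each of 2 m6A IP replicates. According to the study's methods and the submitters' processing notes, the authors aligned reads with HISAT2 to GRCm38 (mm10) and called peaks per replicate, without pooling, with MACS2 (version 2.1.1.20160309, nomodel option). The threshold, the genome size, the treatment of duplicate reads and the control library are not given in the sources used here. The smallest −log10 q in the deposited lists was 1.31 and 1.30, a q-value of 0.05. The deposited fold enrichment is a ratio of IP to local background with 1 added to each, and the deposited −log10 p and −log10 q, and the score made from −log10 q, belong to the same summit. Library totals are unknown from the lists, and reads, of either the IP or the input, were not used here.

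Exons came from the GENCODE M21 basic set (55413 genes) and sequence from GRCm38, with coordinates counted from 1. A summit was placed on the transcript with the longest coding sequence, or else on another transcript of the gene. Stop and start codon windows were 200 nt, with the stop codon taking precedence, and GGAC and DRACH were searched on the transcript strand only, within 50 nt. Peaks were shared when they overlapped by at least 1 bp. IP and control reads at a summit were computed from fold enrichment and −log10 p together. With 1 control read worth 0.874 IP reads in replicate 1, and IP reads scaled by 0.952 in replicate 2, whole IP reads matched 100% of peaks of each list within 0.001 in −log10 p. A background that MACS2 averaged over a wider region is not a whole number of control reads. Intervals are exact at 95% and cover counting error only. Copies of the sequence under peaks were searched with blastn 2.17.0 at 90% identity over 100 nt. Python 3.11.15 with pandas 2.3.3, scipy 1.17.1 and biopython 1.88 was used, and the read computation and the placement were tested on simulated data. No test between groups could be made. The members and the gene lists were chosen with earlier results of these data known, and all 10 members were named.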

Additional observations from a re-analysis of the deposited data

How the results depend on the processing

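Results were recomputed under those of 14 alternatives that applied to them, 3 to 10 for each. Of 72 recomputed values, 59 stayed within 1.5 times the count or within the SD between replicates. This count overstates stability, because some of these values could not move. For the strongest peak of each gene, a single replicate always lies within the SD of the mean of both. Dropping peaks whose summit also lay in another gene's exon removed none of the 27, so that alternative changed nothing. Requiring a fold enrichment of at least 4 left 12 of the 27 peaks and 2 genes with a peak in both replicates (16.9% of protein-coding genes), with 41.7% of summits at the stop codon, 41.7% with GGAC within 50 nt and 66.7% of peaks in both replicates. The share at the stop codon was 33.3% in each replicate, with no spread, and became 34.5% when any overlap with an exon or the comprehensive transcript set was used, 34.6% at a −log10 q of at least 5, and 48.1% with a window of 400 nt. A GGAC window of 100 nt gave 81.5% of summits in place of 55.6%. Leaving out each replicate in turn gave 12 to 15 peaks, 6 to 8 genes, 33.3% at the stop codon, 53.3% to 58.3% with GGAC, and a median strongest fold enrichment over the 6 genes of 3.45 to 3.72, against 3.79 with both. Ranking peaks by fold enrichment moved Ythdf3 from 5.03 to 8.47, its 5′ peak on 16 and 15 IP reads. No paired analysis was possible because the only group with peak lists is the m6A IP.
The lists give no depth, and a gene without a peak has no value. Fold enrichment is imprecise where the background is below 2 control reads, as at Ythdc2 and the 5′ end of Ythdf3 in replicate 2.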

Other observations

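Intronic and flanking peaks of the members fell outside the exonic rule. Alkbh5 had a peak upstream of its first basic exon in the gene body in both replicates, chr11:60537310-60537710 with a fold enrichment of 3.17 and −log10 q of 2.90 (16 IP reads over 5 control reads), and chr11:60537272-60537739 with 7.38 and 11.8 (23 over 2.1), a 2.33-fold difference that 2.09% of all pairs exceeded. Fto had an intronic summit at each of chr8:91327175-91327387 (7 IP reads) and chr8:91401654-91401854 (25 IP reads) in replicate 1 only, the second of which overlaps an exon. The Igf2bp3 intronic peak, chr6:49111750-49111950, lay in sequence with 132800 other matches in the genome, and the origin of its 13 IP reads was not tested. Past the 3′ end of Ythdf2, replicate 1 alone had a peak at chr4:132181452-132181686, 3335 nt beyond the annotated gene, with a fold enrichment of 6.01 on 26 IP reads.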
